A study of Artemia parthenogenetic lineage with 6 samples.

Results

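This section is about a set of 167 gene models of the brine shrimp Artemia parthenogenetica whose read level was higher 5 h after embryonic diapause termination (EDT) than in diapause. Among the models of their class that reached a minimum level in diapause, more moved the other way. The count table held 16591 gene models, of which 12851 had an evm.TU identifier, the form written by EVidenceModeler, a program that combines gene predictions. Another 287 joined several such identifiers and are counted here with the evm models. The remaining 3453 are called non-evm models. Their identifiers are a common word with a running number, from 1 to 3453, each used once. The sources used here do not say how these models were made. The table pairs no identifier with a gene name, a protein or a sequence, so each non-evm model is given here by its running number and its length in bases, and nothing can be said of what it encodes.

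In diapause an Artemia embryo, enclosed in a shell as a cyst, halts its development and lowers its metabolism, and it can wait in this state through drought and cold. Once diapause is broken and the cyst is wet, warm and lit, respiration and development resume, and stored transcripts are joined by newly made ones. Read levels are relative to the total of a library and do not give the amount of an RNA per cyst.

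The groups were ArR_5h, collected 5 h after EDT (n = 3 libraries), and ArD_0h, collected in the diapause stage (n = 3 libraries). All were wild-type whole cysts, and the study describes biological replicates from one batch of cysts. The ArR_5h cysts had been wetted in ice-cold artificial seawater of 30‰ salinity and then kept at 28 °C in constant light, after drying and cold storage to break diapause. The ArD_0h cysts are labelled as untreated, while the protocol text shared by both groups leaves unclear whether they were dried and wetted too. What these steps did and what time did cannot be told apart. Whole cysts were used, so fewer cells of a type and less RNA per cell cannot be told apart either. The labels name no sequencing batch.

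Library totals were 9992823 to 12283327 counts at 5 h and 10135128 to 13505892 at 0 h. CPM is the count scaled to a common library total. Members were selected on their own values in this contrast: a non-evm model had to reach 1 CPM in every ArD_0h library, have a mean ArR_5h CPM of at least 2 times the mean ArD_0h CPM, stay under 200 CPM in the ArR_5h mean, and have every ArR_5h library above every ArD_0h library. Of the 3453 non-evm models, 2089 reached the minimum level and 173 of these passed the ratio. Another 4 were at or above the upper limit and 2 had overlapping libraries, which left 167 models, or 7.99% of the 2089. Because the same libraries chose them, their higher level at 5 h is a description and carries no test.

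Among models that reached the minimum at 0 h, the direction of the class was the opposite. The ratio, upper limit and order were turned round (mean ArD_0h CPM at least 2 times mean ArR_5h CPM and under 200, no overlap). The minimum of 1 CPM stayed on the ArD_0h libraries. A fall could thus end at any level, while a rise from under 1 CPM was not counted, so the shares do not weigh both directions alike. By these limits 445 non-evm models, or 21.3% of the 2089, were lower at 5 h, which is 2.66 for each of the 167. Among 8997 evm models that reached the minimum, 1174 (13.0%) were higher at 5 h and 657 (7.30%) lower, or 0.560 lower for each higher. The other 1922 non-evm models of at least 1 CPM had a median ratio of 0.766. The 167 members had a median ratio of 2.52, a value fixed in part by the limit of 2.

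**Figure D1:**
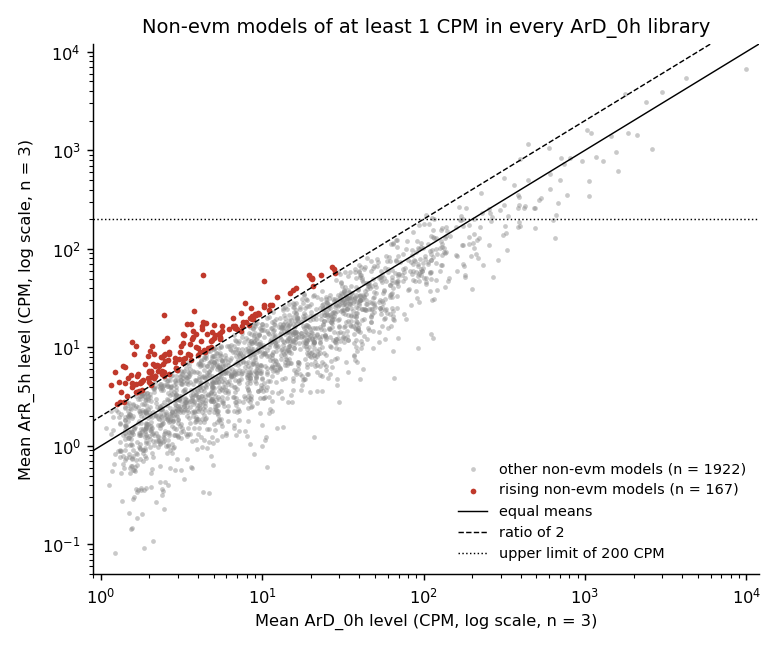
Mean ArR_5h level (vertical axis, CPM, log scale, n = 3) against mean ArD_0h level (horizontal axis, CPM, log scale, n = 3) of the 2089 non-evm models of at least 1 CPM in every ArD_0h library. Each point is a model, the 167 rising models are red, and the lines mark equal means, a ratio of 2 and the upper limit of 200 CPM; most grey points lie below the line of equal means.

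The highest mean among the members was 64.8 CPM at 5 h, far under the upper limit, since 4 non-evm models that met the ratio were above it and none lay between. Those 4 had mean ArR_5h levels of 221, 816, 1152 and 3729 CPM against ArD_0h means of 103, 398, 446 and 1766 CPM. At the ratio limit, model 2933 had 12.8, 18.5 and 12.9 CPM at 5 h against 7.94, 7.10 and 7.03 CPM at 0 h and was just inside. Just outside was model 424, with 14.9, 13.3 and 11.7 CPM at 5 h against 6.33, 6.31 and 7.48 CPM at 0 h, a ratio of 1.98. Models 2516 and 2948 were also just inside, models 317 and 1459 just outside. There were 28 members with ratios under 2.2 and 52 models with ratios from 1.8 to the limit that met all other conditions, so the limit runs through a continuous range of values. At the minimum level, models 729, 2080 and 504 passed with lowest ArD_0h libraries of 1.04, 1.04 and 1.09 CPM. Models 370, 3163 and 1008 had lowest ArD_0h libraries of 0.987, 0.987 and 0.963 CPM and were left out, though their ratios were 3.31, 2.33 and 2.06.

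The largest ratio belonged to model 2737 (3943 bases). It had 56.3, 69.0 and 39.1 CPM in replicates 1, 2 and 3 of ArR_5h against 5.39, 3.45 and 4.07 CPM in those of ArD_0h. It averaged 54.8 ± 15.04 CPM in ArR_5h and 4.30 ± 0.988 CPM in ArD_0h (SD, n = 3 each), a ratio of 12.7. These values came from 480 to 690 reads per library at 5 h and 35 to 57 at 0 h. No other member combined a mean above 50 CPM at 5 h with one below 15 CPM at 0 h, and model 2737 stands apart from the band of the other members in the plot of mean levels.

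Model 55 (3649 bases) followed, with 22.3, 24.2 and 17.7 CPM at 5 h against 2.17, 2.96 and 2.30 CPM at 0 h, a ratio of 8.65. Model 401 (1812 bases) had 8.68, 16.4 and 9.04 CPM at 5 h against 1.51, 1.48 and 1.70 CPM at 0 h, a ratio of 7.27. In this model replicate 2 of ArR_5h lay well above the other two, whereas the ArD_0h libraries were close together. Model 3109 (2685 bases) had 11.3, 10.7 and 9.04 CPM at 5 h against 1.32, 1.58 and 2.07 CPM at 0 h, a ratio of 6.23.

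Model 172 (2734 bases) reached 22.7, 29.1 and 18.3 CPM in the ArR_5h libraries against 4.35, 2.96 and 3.998 CPM in the ArD_0h libraries, and its ratio was 6.20. In model 1084 (1998 bases), the ArR_5h libraries had 8.15, 10.6 and 6.84 CPM and the ArD_0h libraries 2.17, 1.18 and 1.48 CPM, a ratio of 5.29. In all 6 of these models the lowest ArR_5h library was more than 3 times the highest ArD_0h library. All 6 lay under 6 CPM in every ArD_0h library, so that their ratios rest on 12 to 57 reads per library at 0 h.

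Most members changed far less. The ratio was under 2.5 in 80 of the 167, at least 3 in 51, at least 4 in 21, at least 5 in 7 and at least 8 in 2. The distance between the groups was narrower than the ratio of means. The lowest ArR_5h library exceeded the highest ArD_0h library by a factor of 1.09 to 7.25, with a median of 1.89. This factor was at least 2 in 70 members and at least 1.5 in 134.

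**Figure D2:**
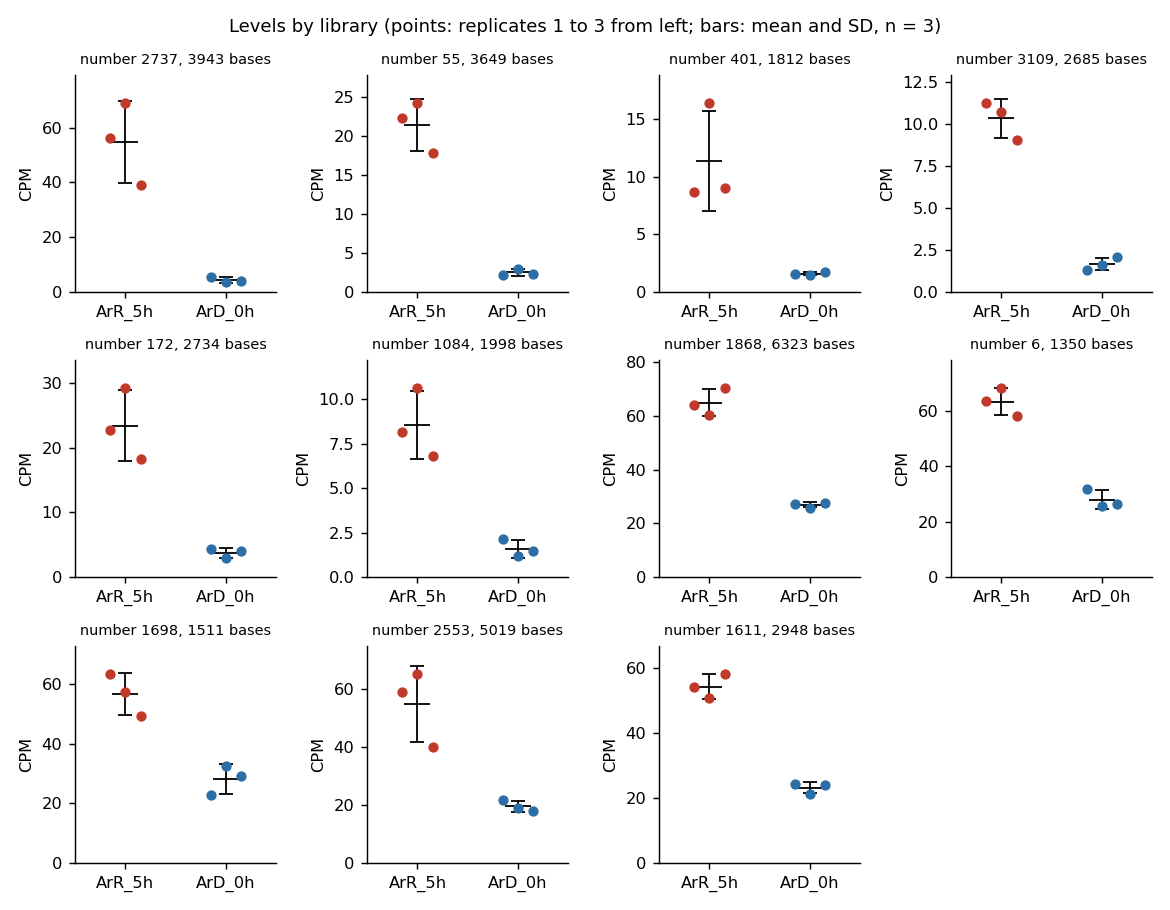
Level in CPM (vertical axis, from 0) of the members with the 6 largest ratios and the 6 highest ArR_5h means, which share model 2737, titled by running number and length. Points are ArR_5h (left) and ArD_0h (right) libraries in the order of replicates 1 to 3, bars give the mean and SD (n = 3), and in each of the 11 panels every ArR_5h point lies above every ArD_0h point.

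The members with the highest levels at 5 h had small ratios, apart from model 2737. Model 1868 (6323 bases) had 64.1, 60.2 and 70.1 CPM at 5 h against 27.0, 25.9 and 27.8 CPM at 0 h, a ratio of 2.41. Model 6 (1350 bases) had 63.3, 67.9 and 58.2 CPM at 5 h against 31.9, 25.8 and 26.4 CPM at 0 h, a ratio of 2.26. The ArR_5h libraries of both models lay within 10 CPM of each other, and the groups were well separated.

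Less separated was model 1698 (1511 bases), with 63.4, 57.5 and 49.3 CPM at 5 h against 22.8, 32.7 and 29.1 CPM at 0 h. Its ratio of 2.01 was among the lowest of the members. Model 2553 (5019 bases) had 59.1, 65.1 and 39.97 CPM at 5 h against 21.6, 18.9 and 17.8 CPM at 0 h, with replicate 3 of ArR_5h well below the other two. Model 1611 (2948 bases) had 54.1, 50.8 and 58.3 CPM at 5 h against 24.4, 21.3 and 24.0 CPM at 0 h, and here replicate 3 was the highest.

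Low levels were the rule. Of the 167 members, 37 had an ArD_0h mean under 2 CPM, 114 under 5, 148 under 10 and 160 under 20 CPM. At 5 h, 83 had a mean of at least 10 CPM, 32 of at least 20, 11 of at least 40 and 8 of at least 50 CPM. Their median level was 9.96 CPM in ArR_5h and 3.30 CPM in ArD_0h, where the other 1922 non-evm models had medians of 7.54 CPM in ArR_5h and 9.95 CPM in ArD_0h. The median member had a mean of 110 reads per library at 5 h and 38 at 0 h. In 47 members at least one ArD_0h library held fewer than 20 reads, and the lowest count was 11.

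The share of models past the rule's limits was also read by level in diapause. The ArD_0h mean that sets the range is also the denominator of the rule's ratio, so a model that is low at 0 h by error falls in a low range and gains a high ratio, and part of the pattern is built in. Among non-evm models, 15.9% of 233 with an ArD_0h mean of 1 to 2 CPM were members, 14.9% of 516 at 2 to 5, 9.37% of 363 at 5 to 10, 3.87% of 310 at 10 to 20, 1.90% of 369 at 20 to 50 and 0 of 298 at 50 CPM or more. The share lower at 5 h ran the other way as far as 50 CPM, from 17.2% at 1 to 2 CPM and 17.1% at 2 to 5 CPM up to 29.5% at 20 to 50 CPM, and was 19.5% at 50 CPM or more. At the lowest levels the shares higher and lower at 5 h were thus close to each other, and from 5 CPM upwards the lower models prevailed.

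In evm models the share higher at 5 h was 21.3%, 26.2%, 23.2%, 19.1%, 9.09% and 1.51% in the same 6 ranges of level. It was above the share lower at 5 h up to 50 CPM, and below it at 50 CPM or more, where 4.93% were lower. The same shared value, the limit of 200 CPM and the smaller relative error of high counts bear on these shares, and their part in the pattern was not tested.

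**Figure D3:**
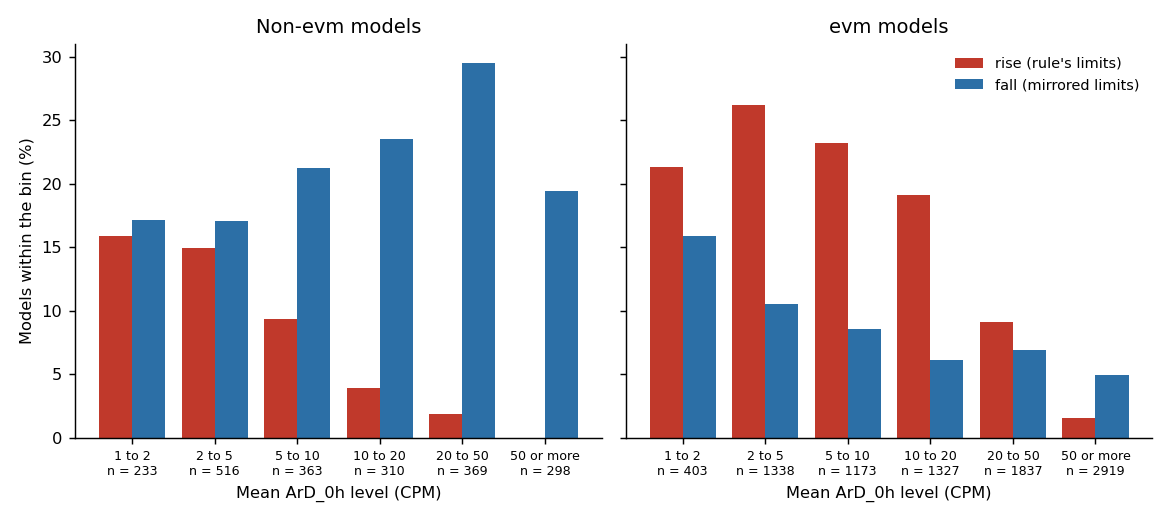
Percent of models (vertical axis, from 0) past the rule's limits for a rise (red) and past the mirrored limits for a fall (blue), by mean ArD_0h level in CPM (horizontal axis, n models in each range), for non-evm (left) and evm models (right). In non-evm models the red bars shrink to 0 at 50 CPM or more, and in evm models they stand above the blue bars up to 50 CPM. The minimum of 1 CPM applies to the ArD_0h libraries for both colours.

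The edgeR quasi-likelihood test over all 11959 models that passed its filter on low counts gives the background. A model was called up-regulated when its log2 fold change was over 1 and its Benjamini-Hochberg adjusted p did not exceed 0.05. This held for 14.3% of all models tested and for 12.5% of the 2418 non-evm models tested. Every ArR_5h library was above every ArD_0h library in 34.6% of all models tested, and by the rule in all 167 members. All 167 members passed the filter on low counts and 158 were called. Since the rule used this contrast, these counts carry no information beyond the rule. The remaining 9 had ratios of at most 2.05 and a fitted log2 fold change of 0.97 to 0.99, just under the limit after scaling by TMM factors (edgeR's trimmed-mean factors for library composition), and all were under the adjusted p limit. The members' log2 fold changes ran up to 3.63, with a median of 1.30. There were 144 called non-evm models outside the set, and 140 of them had an ArD_0h library under 1 CPM.

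Together the members made up a small part of the RNA. Their summed level was 2387, 2594 and 2148 CPM in replicates 1, 2 and 3 of ArR_5h against 885, 882 and 858 CPM in those of ArD_0h. The mean sums were 2376 ± 223 CPM in ArR_5h and 875 ± 14.8 CPM in ArD_0h (SD, n = 3 each), or 0.238% ± 0.0223 and 0.0875% ± 0.00148 of all reads. Within the reads of non-evm models the members held 2.66% ± 0.1999 at 5 h and 0.826% ± 0.00619 at 0 h. All non-evm models together held 8.72% to 9.06% of the reads in the ArR_5h libraries and 10.5% to 10.8% in the ArD_0h libraries.

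No few models dominated this sum. The 10 members with the highest ArR_5h means contributed 22.2% to 23.4% of it in the ArR_5h libraries and 22.5% to 23.4% in the ArD_0h libraries. The order of the ArR_5h libraries, with replicate 2 highest and replicate 3 lowest, remained after TMM scaling, with 2324, 2465 and 2253 CPM at 5 h against 885, 892 and 874 CPM at 0 h. The ArR_5h libraries thus differed more from each other than the ArD_0h libraries did, in both scalings.

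**Figure D4:**
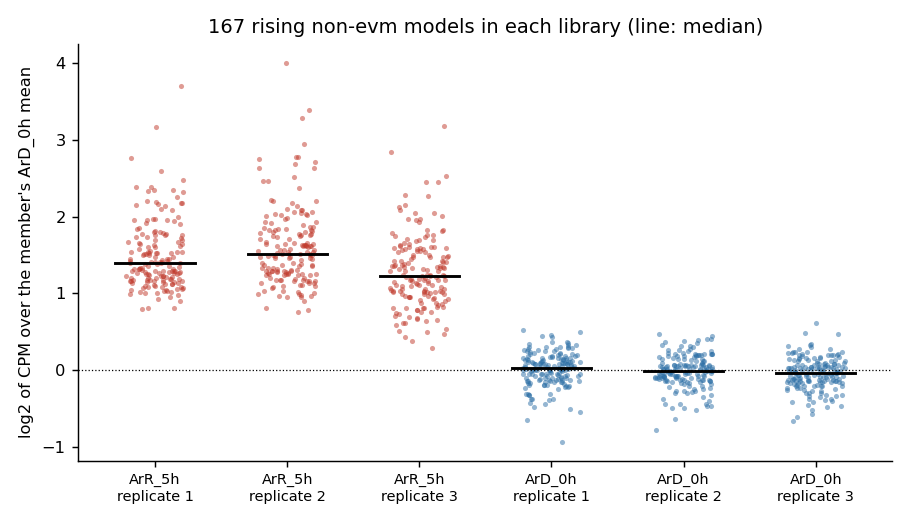
Log2 of each member's CPM over its own ArD_0h mean (vertical axis) in each of the 6 libraries (horizontal axis, ArR_5h left), 1 point per member (167 per library), with the median as a line. Medians are 1.39, 1.52 and 1.23 in replicates 1, 2 and 3 of ArR_5h and 0.03, −0.01 and −0.04 in those of ArD_0h.

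Members differed widely in their spread at 5 h. The coefficient of variation (CV, SD over mean) of the 3 ArR_5h libraries had a median of 16.9%, and of 15.4% after TMM scaling. Without replicate 3 of ArR_5h the median was 10.5%, without replicate 2 it was 13.5% and without replicate 1 it was 20.8%. These CVs rest on fewer libraries and do not compare directly with the CV of all 3. At 0 h the median CV was 13.8%. The CV was larger at 5 h than at 0 h in 98 of the 167 members. This direction was not particular to them. The median CV was 19.95% at 5 h against 9.86% at 0 h in the other 1922 non-evm models. It was 16.2% against 11.5% in the 1174 rising evm models and 12.8% against 6.74% in the 8997 evm models of at least 1 CPM. These sets were not matched for level. For the members, the counting error, taken as 1 over the square root of the mean count, had a median of 9.52% at 5 h and 16.2% at 0 h. The CV exceeded it in 127 members at 5 h and in 71 at 0 h. A CV of 3 libraries falls below such an expected spread more often than above it. Neither the medians nor these counts therefore test for spread beyond counting error. The rule's minimum and its demand for no overlap limit the spread of members, so these counts are a description.

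The largest CV at 5 h was that of model 2349 (7546 bases), 46.2%, with 9.21, 19.4 and 9.36 CPM at 5 h against 4.16, 4.24 and 2.81 CPM at 0 h. Model 2523 (3350 bases) had 5.40, 7.01 and 2.77 CPM at 5 h against 2.08, 2.47 and 1.63 CPM at 0 h, so that its lowest ArR_5h library came close to its highest ArD_0h library. Model 1255 (1010 bases) was variable in both groups, with 10.1, 12.6 and 5.05 CPM at 5 h against 2.08, 1.18 and 2.81 CPM at 0 h. All 3 had their highest ArR_5h value in replicate 2. Model 1654 (2446 bases) did too, with 13.8, 22.2 and 9.77 CPM at 5 h against 6.52, 7.10 and 4.96 CPM at 0 h.

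In contrast, model 2948 (499 bases) had 5.94, 6.004 and 5.86 CPM at 5 h, a CV of 1.20%, against 2.08, 3.45 and 3.33 CPM at 0 h. Model 893 (2089 bases) had 25.6, 25.2 and 25.9 CPM at 5 h against 9.45, 11.9 and 9.48 CPM at 0 h. Model 2507 (483 bases) had 11.96, 12.3 and 12.1 CPM at 5 h against 4.73, 5.33 and 6.44 CPM at 0 h. The ArR_5h libraries of these models lay closer together than counting error alone gives on average, and after TMM scaling their CVs at 5 h were 4.03%, 6.45% and 5.05%. At 0 h the largest CV, 50.5%, was that of model 2080 (912 bases), with 1.04, 1.87 and 3.04 CPM, against which its ArR_5h libraries had 5.67, 7.21 and 4.40 CPM.

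Replicate 2 of ArR_5h was the highest of its group in 97 members, replicate 1 in 37 and replicate 3 in 33. After TMM scaling the counts were 81, 35 and 51. In 37 members (22.2%) the TMM-scaled level was at least 1.5 times as high in replicate 2 as in replicate 3, and in 8 (4.79%) it was the reverse. The same contrast between these 2 libraries was seen in 22.7% of the other 1922 non-evm models and in 22.4% of the 1174 rising evm models, with the reverse in 7.13% and 1.19%. The members thus shared the direction of a difference between libraries found in all 3 sets. Its part in single ratios was not tested.

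Length was not used by the rule. It was recovered from the quotient of count and FPKM (reads scaled by model length and library depth), and for 100% of 14844 models it came out as a whole number (tolerance 0.01 bases). Members had a median length of 2247 bases, with quartiles of 1337 and 3444 bases and extremes of 275 and 10228 bases. The median was 1790 bases in the other 1922 non-evm models, 2119 bases in the 445 that were lower at 5 h, 1638 bases in the 1174 rising evm models and 1332 bases in the 8997 evm models of at least 1 CPM. All these sets had passed the same minimum level. Longer models collect more reads at a given number of transcripts, and the part of this in the medians was not tested, so the medians are a description.

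**Figure D5:**
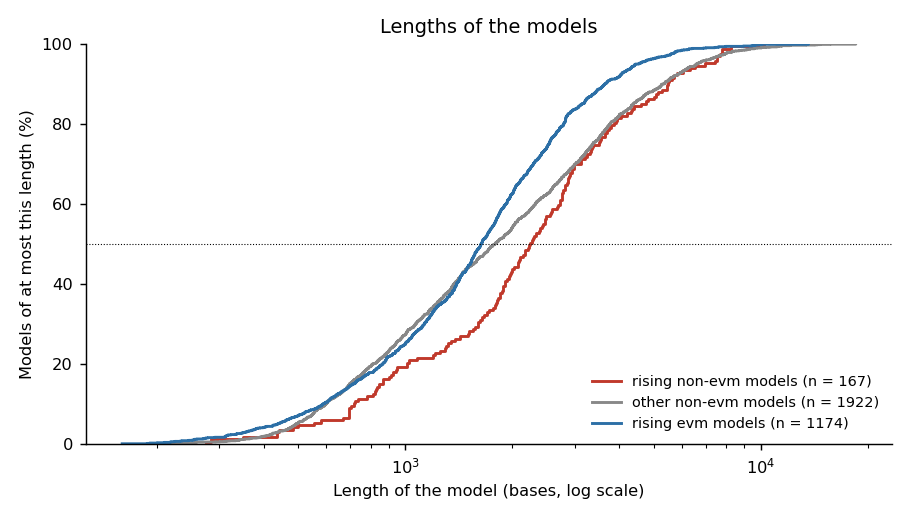
Percent of models of at most a given length (vertical axis) against length in bases (horizontal axis, log scale) for the 167 rising non-evm models, the other 1922 non-evm models and the 1174 rising evm models. The red line crosses 50% at 2247 bases, to the right of the grey and blue lines, and meets the grey line at the long end.

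Of the members, 8 were under 500 bases, 32 under 1000 bases and 23 of 5000 bases or more. By length, the share of non-evm models that were members was 5.75% under 1000 bases, 7.39% at 1000 to 2000, 10.5% at 2000 to 4000 and 8.27% at 4000 bases or more. The share of non-evm models lower at 5 h was 19.4%, 18.4%, 23.8% and 24.5% in the same ranges, so it was also larger in the longer models. In evm models the share higher at 5 h was 9.27%, 13.1%, 17.3% and 20.1%, and the share lower 8.29%, 6.48%, 6.88% and 8.39%. The 167 members had 164 distinct lengths, so they are not copies of one length.

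The longest member, model 3044 (10228 bases), had nearly equal libraries at 5 h, 14.2, 14.2 and 14.7 CPM, against 4.44, 5.13 and 5.11 CPM at 0 h. Next were model 1869 (8260 bases), with 6.91, 9.91 and 5.54 CPM at 5 h against 3.21, 2.37 and 2.22 CPM at 0 h, and model 3305 (7791 bases), with 3.37, 5.00 and 2.77 CPM at 5 h against 2.08, 2.07 and 1.26 CPM at 0 h. Per length these long models were among the weakest. Model 3305 had the lowest mean of the members, 0.465 FPKM at 5 h and 0.229 FPKM at 0 h.

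The shortest members were models 2415 (275 bases), 1155 (285 bases) and 3006 (351 bases). Per length the first of these had the highest mean, 59.7 ± 20.9 FPKM at 5 h against 29.7 ± 3.49 FPKM at 0 h (SD, n = 3 each), with 59.9, 80.6 and 38.7 FPKM in the ArR_5h libraries and 28.7, 26.8 and 33.5 FPKM in the ArD_0h libraries. Its lowest ArR_5h library was thus only slightly above its highest ArD_0h library. Model 1155 was more separated, with 57.5, 42.5 and 53.9 FPKM at 5 h against 15.3, 14.8 and 8.80 FPKM at 0 h. Model 3006 was the least variable of the 3, with 12.5, 11.3 and 10.9 CPM at 5 h against 2.36, 2.57 and 2.44 CPM at 0 h, a ratio of 4.71.

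Also high per length were model 526 (436 bases), with 41.7, 45.2 and 62.0 FPKM at 5 h against 16.0, 29.7 and 19.6 FPKM at 0 h, and model 6, with 45.4, 47.2 and 45.5 FPKM at 5 h against 23.2, 19.0 and 19.5 FPKM at 0 h. Only these 4 models, 2415, 1155, 526 and 6, had an ArR_5h mean of at least 40 FPKM. At 5 h, 35 members reached a mean of 10 FPKM, and 10 did at 0 h. The median member had 4.20 FPKM at 5 h and 1.54 FPKM at 0 h, where the rising evm models had medians of 13.9 FPKM at 5 h and 4.85 FPKM at 0 h. Per length the members were thus weaker than evm models past the same limits in both groups. This was not particular to the members. The other 1922 non-evm models had medians of 3.63 FPKM at 5 h and 5.02 FPKM at 0 h. In the 8997 evm models of at least 1 CPM the medians were 18.7 and 16.7 FPKM. The median ratios of the members and the rising evm models, 2.52 and 2.67, were about the same, which the shared limit of 2 fixes in part.

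The running numbers were also not used by the rule. The sources used here do not say whether successive numbers mark adjacent places in the genome. The members included 16 pairs of successive numbers, 32 models in all, and no run was longer. Counted once each, 195 models of at least 1 CPM were next to a member, and 32 of these (16.4%) were members themselves, where members were 7.99% of all such non-evm models. The library kit keeps no strand, so reads of overlapping models cannot be assigned by strand. Whether the models of a pair share reads or a transcript was not tested.

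Models 1230 (2916 bases) and 1231 (1849 bases) had the largest ratios together, 4.96 and 3.38. The first had 10.8, 11.4 and 8.55 CPM at 5 h against 2.08, 1.68 and 2.44 CPM at 0 h, and the second 8.06, 10.8 and 7.90 CPM at 5 h against 2.93, 2.76 and 2.22 CPM at 0 h. In both, replicate 2 was the highest and replicate 3 the lowest ArR_5h library. The other pair with both ratios above 3 was that of models 2693 (6966 bases) and 2694 (2247 bases), with ratios of 4.21 and 3.07. The first had 14.5, 17.8 and 8.30 CPM at 5 h against 3.88, 3.26 and 2.52 CPM at 0 h. The second had 4.70, 5.00 and 3.34 CPM at 5 h against 1.70, 1.28 and 1.26 CPM at 0 h.

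In models 3221 (2825 bases) and 3222 (4611 bases) the ArR_5h libraries again had the same order. The first had 17.5, 23.5 and 11.1 CPM at 5 h against 3.21, 3.26 and 3.85 CPM at 0 h, and the second 26.1, 36.6 and 18.9 CPM at 5 h against 10.9, 10.8 and 9.33 CPM at 0 h. Their ratios were 5.05 and 2.64. In models 526 and 527 (1307 bases), replicate 3 was the highest in both, with 18.8, 21.0 and 25.6 CPM in the first and 25.2, 22.3 and 33.1 CPM in the second at 5 h, against 7.09, 13.0 and 8.59 CPM and 10.8, 11.6 and 11.0 CPM at 0 h. The highest ArR_5h library was the same for both models in 12 of the 16 pairs, replicate 2 in 8 of these, replicate 3 in 3 and replicate 1 in 1. By CPM, replicate 2 was the highest in 58.1% of all members and in 52.9% of the other non-evm models. Models that are not neighbours thus often share it too, and whether pairs did so more often was not tested.

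The other 4 pairs had different highest libraries. In models 1611 and 1612 (3693 bases), the first was highest in replicate 3 and the second in replicate 2, with 16.3, 24.5 and 11.0 CPM at 5 h against 5.01, 2.96 and 2.96 CPM at 0 h. Their ratios, 2.34 and 4.74, differed too. Models 1868 and 1869, models 1504 and 1505 and models 2981 and 2982 also fell in this group. Among the pairs with the same highest library, models 1961 (705 bases) and 1962 (1211 bases) had means of 3.24 and 39.9 CPM at 5 h against 1.45 and 16.1 CPM at 0 h, with ratios of 2.24 and 2.48.

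The remaining pairs had means of 4.28 to 25.6 CPM at 5 h against 1.65 to 10.3 CPM at 0 h and ratios of 2.09 to 3.63. They were models 893 and 894, 1280 and 1281, 1437 and 1438, 1653 and 1654, 1904 and 1905, 2418 and 2419, and 3093 and 3094. Closest in ratio of all were models 1904 (2810 bases) and 1905 (1667 bases), at 2.55 and 2.59, with 4.87, 5.00 and 3.83 CPM and 4.34, 5.40 and 3.09 CPM at 5 h, against 1.23, 2.37 and 1.78 CPM and 1.32, 2.07 and 1.55 CPM at 0 h. In both, replicate 2 was the highest library of each group.

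Neighbours by number did not all share the members' direction. Of the 163 models of at least 1 CPM that were next to a member without being one, 28 (17.2%) were past the limits for a fall, against 23.2% of all 1922 other non-evm models. Their median ratio was 0.806, against 0.766 in those 1922. Next to model 2737, model 2738 (974 bases) had 5.76, 5.80 and 6.02 CPM at 5 h against 10.8, 12.6 and 12.7 CPM at 0 h. Model 56 (1985 bases), next to model 55, had 4.16, 3.90 and 1.55 CPM at 5 h against 8.04, 8.29 and 9.33 CPM at 0 h. The 2 members with the largest ratios thus each had a neighbour by number that was lower at 5 h in every library.

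The 28 fallen neighbours were 2.03-fold to 8.52-fold lower at 5 h, beside members of small and of large ratio. Model 743 (500 bases), next to model 742 (2588 bases, ratio 2.18), had 3.28, 4.40 and 6.59 CPM at 5 h against 32.5, 34.9 and 54.2 CPM at 0 h, or 8.52-fold lower. Model 3095 (3100 bases) had 4.52, 5.70 and 3.99 CPM at 5 h against 28.5, 29.9 and 29.0 CPM at 0 h, or 6.15-fold lower, next to model 3094 (ratio 2.52). Beside members of larger ratio, model 2248 was 4.47-fold lower, next to model 2247 (ratio 3.42), and model 1254 was 3.70-fold lower, next to model 1255 (ratio 4.57). Model 1623 (2944 bases, ratio 2.04) had a lower model on both sides, models 1622 and 1624, with ratios of 0.492 and 0.447. All fallen neighbours named here, with members 742, 1623 and 2247, were chosen for mention after their values were seen.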

How the data were processed

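RNA of ArR_5h and ArD_0h cysts was sequenced as 150 bp paired-end reads after an unstranded library preparation. The submitters' processing notes name HISAT2 2.0.5 and featureCounts 1.5.0-p3, and per the methods of the study the reference genome was that of the related Artemia franciscana. The sources used here do not give the strand setting of counting. The deposited table gives a raw read count per gene model and library, with no pooling of replicates. The authors also deposited FPKM values, made from count and model length, whose library divisors were 94.8% to 107% of the listed totals. All count and FPKM columns were matched to a library by the labels.

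CPM was computed from the column sums and the rule applied in Python 3.11.15 (pandas 2.3.3). The counts of all 6 libraries were tested with edgeR 4.0.16 in R 4.3.3 (quasi-likelihood F test, TMM factors, filterByExpr with minimum count 10 and minimum total 15, Benjamini-Hochberg adjustment), which left 11959 of 16591 models. The p-values measure the spread between these libraries only. No read was listed for 1747 models. The procedure was tested on simulated data, with recovery demanded only for changes larger than those of most members. Alternatives were other scaling factors and filters, DESeq2 1.42.0, limma-voom (limma 3.58.1), glmTreat, a replicate block, other limits of the rule and leaving out each library in turn. Figures were drawn with matplotlib 3.10.9.

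The members, the limits and the lists were chosen with earlier results of these data known. Models named in the text are the members with the 6 largest ratios of mean CPM, the 6 highest ArR_5h means in CPM and the 4 highest in FPKM, the 3 longest and 3 shortest, the 4 largest and 3 smallest CVs at 5 h and the 2 largest at 0 h, the 3 members just inside and the 3 models just outside each limit, and pairs of successive running numbers. Outside this rule, fallen neighbours by number and members 742, 1623 and 2247 were named after their values were seen. Counting errors cover the sampling of reads only, and reads that carry no molecular identifier are not independent.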

Additional observations from a re-analysis of the deposited data

How the results depend on the processing

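Of 85 alternatives, 75 stayed within 1.5 times of a count or within 1 SD of a median, and none turned a direction. The other 10 follow. With a minimum of 2 or 5 CPM in every ArD_0h library, 110 and 43 models met the rule, and with a ratio of 1.5 or 3 the rule took 325 and 51. Under glmTreat, which tests against the fold limit itself, 836 of all models, 114 non-evm models and 56 members were called up-regulated. The median CV at 5 h was 10.5% to 20.8% when each library was left out in turn, with the lowest value without ArR_5h replicate 3. With a ratio of 1.5, 79 members had a member at the next number, and 50 did when a number up to 3 away counted as next.

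Leaving out each library in turn, the rule took 152 to 201 models, and 150 to 159 members were called. Scaling by TMM or RLE factors left 158 and 159 models, of which 158 each were among the 167, so 9 members with ratios just above 2 depend on scaling by totals. The replicate block gave 1693 calls over all models, 300 among non-evm models and 155 among members. Same-numbered libraries correlated at 0.0194, 0.0328 and 0.0955 in their deviations from the group means. Replicates 1 and 3 of ArR_5h correlated best with the ArD_0h library of the same number, and replicate 2 with ArD_0h replicate 1 (0.0538). The labels do not say that a number marks a shared origin, so the numbers were not taken as pairs.

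Depth limits the low end: 114 members had an ArD_0h library under 50 reads, and the minimum of 1 CPM corresponds to 10 to 14 reads. Lists of models without names allow no statement on function.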
